A study of Mus musculus with 24 samples.

Results

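Expression of 10 metabolic enzymes linked to MYCN was examined in mouse adrenal glands and neuroblastoma tumors. The enzymes were picked by name: Odc1, Amd1, Srm and Sms of polyamine synthesis, Phgdh, Psat1 and Psph of serine synthesis, Shmt2 and Mthfd2 of mitochondrial one-carbon metabolism, and Pycr1 of proline synthesis. All 10 were found among the 21833 genes of the deposited table, and all 10 were among the 10171 genes that reached 1 FPKM in at least 3 libraries and were tested, where FPKM are fragments scaled to gene length and library size. Sms, Mthfd2 and Pycr1 met this threshold through tumor libraries, since Sms and Pycr1 reached it in 0 gland libraries and Mthfd2 in 2.

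The RNA-seq libraries covered 24 samples in 4 groups. The controls, AG (n = 3), were adrenal glands without Cre (CRE -). The AGM group (n = 5) held tumor-free adrenal glands with the genotype MYCN +/-, CRE +. TI were neuroblastoma tumors with IGF2BP1 and CRE +, of which 7 were +/+ and 1 was +/- for the transgene (n = 8), and TIM were neuroblastoma tumors labelled IMP1/MYCN, CRE + (n = 8), where IMP1 is another name of IGF2BP1. By source label, TI held 7 samples called tumor and 1 adrenal gland tumor, and TIM 5 called tumor, 2 adrenal gland tumors and 1 spine tumor. Single columns could not be tied to a site. Cre was driven by the Dbh promoter, which is active in noradrenergic cells, so the transgenes were switched on in these cells and not in the whole gland. Both transgenes were placed in the Rosa26 locus of mice backcrossed to C57Bl6/N, and the IGF2BP1 transgene lacked its 3'UTR. The MYCN transgene is human and no row of the table measured it, so Mycn below is the mouse gene. Age was not tied to single libraries but differed between groups, since AGM mice were kept until a late fixed age and tumor mice were killed with their disease, earliest in the double transgenic line, so age and group cannot be told apart. Nothing in the labels states that the samples of a group are from separate litters or cultures, so p-values measure the spread between these samples. The paper reports more tumors than animals in the double transgenic line, and no column could be tied to an animal. Means below stand with the SD over the libraries of a group (n as above).

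Polyamines are small, positively charged molecules that growing cells need for translation. Odc1 makes putrescine from ornithine and is the classic rate-limiting step, Amd1 supplies the aminopropyl donor, Srm turns putrescine into spermidine and Sms turns spermidine into spermine. Phgdh, Psat1 and Psph make serine from a glycolytic intermediate, Shmt2 splits serine into glycine and a one-carbon unit in mitochondria, Mthfd2 oxidizes that unit for nucleotide synthesis, and Pycr1 completes proline synthesis. Odc1 is a textbook target of MYC family factors, whereas Phgdh, Psat1, Shmt2, Mthfd2 and Pycr1 are also known targets of Atf4, the factor of the amino acid response.

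Read numbers were recovered from the FPKM values and are counts after batch adjustment by ComBat-seq, not raw reads. They totalled 17434796 to 17893013 per library in AG and 12468968 to 21353172 in TI, but 116740738 to 1170004708 in AGM and 58530450 to 888626365 in TIM, where single genes reached up to 12269461 FPKM. The totals counted outside 126 genes that exceeded 1000 FPKM in any library, ranged from 12334076 to 23683176 per library. These 126 genes took 86.1% to 98.6% of recovered reads in AGM and 64.5% to 97.3% in TIM, but 0.792% or less in AG and 2.21% or less in TI. When FPKM were recomputed without them, the median difference over all genes shifted by -0.45 in AGM vs AG, -0.15 in TIM vs AG, -0.13 in TIM vs TI, -0.02 in TI vs AG and 0.30 in TIM vs AGM on the log2 scale. The share of calls that were higher moved with this scaling, from 51.2% to 21.8% in AGM vs AG, from 43.6% to 29.9% in TIM vs TI and from 48.8% to 59.9% in TIM vs AGM, and with limma-voom on recovered reads it was 13.9%, 22.6% and 61.0% there and 31.6% against 44.2% in TIM vs AG. All 3 AG libraries were sequenced in run 1, all 5 AGM libraries in run 2, 3 TIM libraries in run 2 and 5 in run 3, so AGM and TIM share no run with AG and run and group cannot be told apart there. Of the TI libraries 6 were in run 1, where no TIM library was, and 1 each in runs 2 and 3, so TIM vs TI, the Srm difference included, is nearly as confounded with run. Single columns could not be tied to a run, so no value within a run could be given. The tissue labels were checked against markers. The 8 adrenal cortex markers summed to 645 to 667 FPKM in AG and 4293 to 5373 FPKM in AGM, but to 0.0173 to 10.1 FPKM in TI and 0.281 to 9.28 FPKM in TIM, whereas the 10 chromaffin and sympathetic markers reached at least 142 FPKM in every library. Every difference between tumors and glands below is therefore also a difference between tissues with and without cortex, whose part was not tested. In bulk tissue, fewer cells of a type and less RNA per cell cannot be told apart.

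The number of enzymes that differed ranged from 0 in AGM vs AG to 7 of 10 in TIM vs AGM. Calls rest on limma across all tested genes at a false discovery rate (FDR, Benjamini-Hochberg adjustment) below 0.05. In TI vs AG, 3 of 10 were higher (Sms, Mthfd2 and Pycr1) and 2 were lower (Amd1 and Phgdh), against 24.6% of all tested genes higher and 27.7% lower. In TIM vs AG, 4 of 10 were higher (Srm, Sms, Mthfd2 and Pycr1) and 0 were lower, against 22.5% and 28.5%. An unadjusted p below 0.05 was reached by 1 enzyme in the lower direction, and limma-voom on recovered reads called the same gene, Amd1. In TIM vs TI, 3 of 10 were higher (Srm, Phgdh and Pycr1) and 0 lower, also at an unadjusted p below 0.05, against 10% and 12.9% of all genes, and limma-voom called 1 of these 3, Srm, and none lower. In TIM vs AGM, 5 of 10 were higher (Srm, Sms, Psat1, Mthfd2 and Pycr1) and 2 lower (Psph and Shmt2), against 31.9% and 33.4%. In AGM vs AG, 0 of 10 passed in either direction with limma, also at an unadjusted p below 0.05, against 14.6% and 14.0% of all genes. There, limma-voom and recomputed FPKM each called 3 enzymes lower, Odc1, Srm and Sms. A fit of AGM and AG alone called 8, with Odc1, Srm, Sms and Psat1 lower and Psph, Shmt2, Mthfd2 and Pycr1 higher. The median difference of the 10 enzymes was 0.04 in TI vs AG, 0.17 in TIM vs AG, -0.02 in AGM vs AG, 0.12 in TIM vs TI and 0.60 in TIM vs AGM on the log2 scale. The median over all tested genes lay between -0.00 and 0.03 in these comparisons. The comparisons share control libraries and are not independent of each other. Sms, Mthfd2 and Pycr1 were tested because of tumor libraries, so counts of higher enzymes in tumors depend partly on the filter. With 1 FPKM required in every library, 5 enzymes were tested in TI vs AG and 1 was called. Without a filter 4 of 10 were called there.

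**Figure D1:**
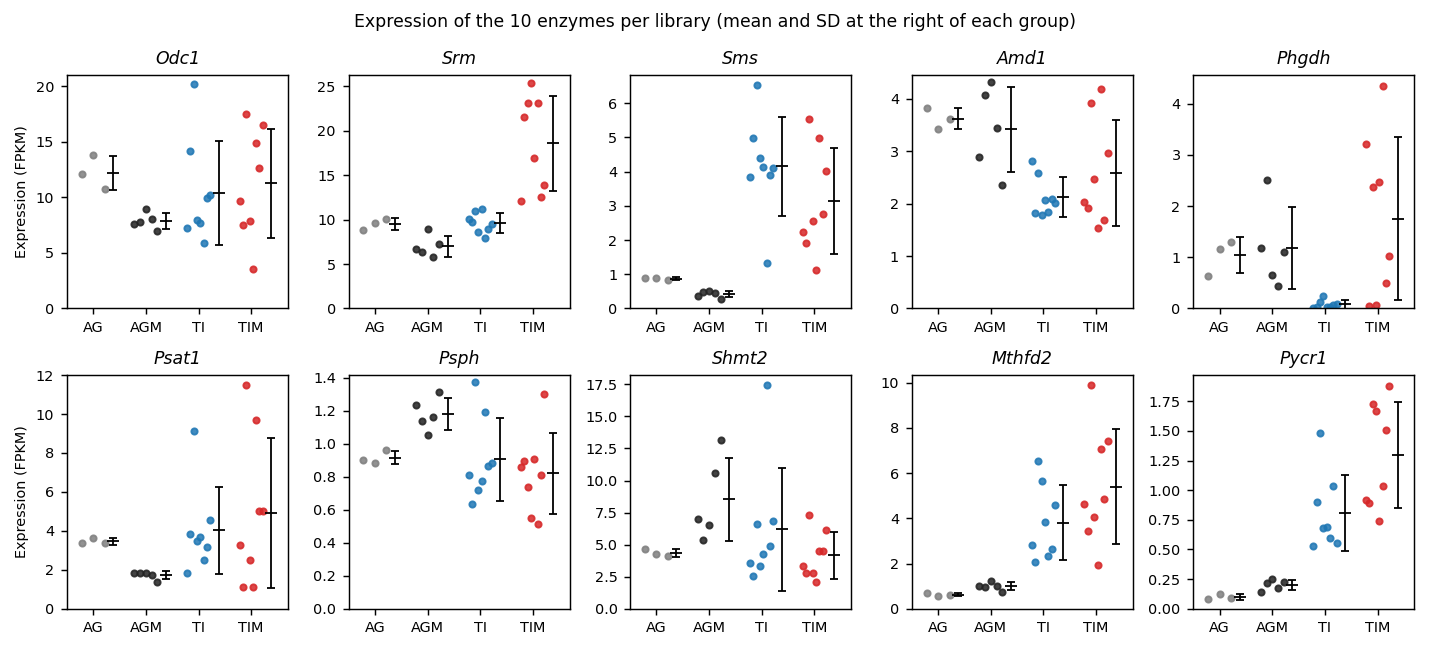
Expression of the 10 enzymes in FPKM (y axis) in each library of AG, AGM, TI and TIM (x axis), with mean and SD as a bar to the right of each group. All 8 TIM libraries lay above every other library for Srm, and Sms, Mthfd2 and Pycr1 lay higher in every tumor than in every gland.

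Spermidine synthase was the enzyme that set the double transgenic tumors apart. Srm was at 8.80, 9.65 and 10.1 FPKM in AG and at 6.75, 6.37, 8.91, 5.78 and 7.22 FPKM in AGM. TI ranged from 7.97 FPKM over a median of 9.64 FPKM to 11.2 FPKM, and TIM from 12.1 FPKM over a median of 19.2 FPKM to 25.4 FPKM. All 8 TIM libraries thus lay above all 16 others, while the AG libraries lay within the range of TI. Mean Srm in TIM, 18.6 ± 5.35 FPKM, was 1.93-fold that of TI, 9.61 ± 1.11 FPKM, with a log2 difference of 0.84 (SE 0.14, limma FDR = 0.000329). Against AG the log2 difference was 0.85 (SE 0.19, limma FDR = 0.000733), and against AGM 1.25 (SE 0.16, limma FDR = 5.58e-07). TI and AG differed by 0.01 with a 95% interval from -0.39 to 0.40. The TIM calls held in every alternative that was run.

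Srm lies on chromosome 4 (148675940 to 148681792, plus strand, GRCm39), and its surroundings carried more copies of the letters CACGTG than any other of the 10 enzymes. CACGTG is the E-box bound by MYC family dimers and reads the same on both strands. Within 1000 bases on each side of the canonical transcription start, Srm held 5 copies, 1 upstream of the start and 4 in introns. The letters are frequent, with at least 1 copy in 32.6% of the 10160 windows of this length around tested genes, and 6 of the 10 enzymes held at least 1. Each match is shown as 30 bases of the gene's own strand with the E-box in capitals, read from the GRCm39 genome with GENCODE M39 transcripts, and positions count from the canonical start.
Srm, position -152, chr4:148675776-148675805: agggcctctcccCACGTGgcccggcagccg
Srm, position 366, chr4:148676294-148676323: cggccctgcgtcCACGTGtcactatcggga
Srm, position 424, chr4:148676352-148676381: acccagcccccaCACGTGgctcgcctgcca
Srm, position 440, chr4:148676368-148676397: tggctcgcctgcCACGTGtcaccccgaatg
Srm, position 482, chr4:148676410-148676439: ccccatggcggcCACGTGcacgcccaggga
A match describes the letters only and was not tested as a binding site. Of 27 tested neighbors of Srm within 1 Mb, 2 were higher and 3 lower in TIM vs TI, so the difference of Srm was not shared by most genes beside it.

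Spermine synthase was higher in both kinds of tumor. Sms was at 0.884, 0.898 and 0.829 FPKM in AG and at 0.375, 0.484, 0.504, 0.446 and 0.290 FPKM in AGM. TI ranged from 1.32 FPKM over a median of 4.11 FPKM to 6.52 FPKM, and TIM from 1.13 FPKM over a median of 2.65 FPKM to 5.53 FPKM. Each of the 16 tumors lay above each of the 8 glands. The means of 4.15 ± 1.44 FPKM in TI and 3.14 ± 1.54 FPKM in TIM were 4.77-fold and 3.61-fold the AG mean, with log2 differences of 1.40 (SE 0.28, limma FDR = 0.000235) and 1.06 (SE 0.28, limma FDR = 0.00328). Sms in TIM and TI differed by -0.34 (95% interval -0.77 to 0.09, limma FDR = 0.243). Without TI library 6, the lowest TI library, this difference was -0.50 and passed (limma FDR = 0.0427). Library numbers give the order of the columns within a group and pair nothing. Sms lies on chromosome X (156226848 to 156275317, minus strand), had no tested neighbor within 1 Mb and held 1 E-box upstream of its start, shown because Sms and Srm consume the same donor.
Sms, position -183, chrX:156275462-156275491: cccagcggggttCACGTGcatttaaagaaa

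Because a ratio of transcripts within a library depends little on how the library is scaled, paired enzymes were compared as log2 ratios of FPKM + 0.1 by exact two-sided permutation over libraries, with 11 ratios in 5 comparisons adjusted together (27 of 55 passed 0.05). With 3 against 8 libraries p cannot go below 0.00606, and with 3 against 5 not below 0.0179. When any 1 of the 3 AG libraries was left out the smallest possible p rose, and no ratio passed against AG. In AGM vs AG the smallest possible p also rose when 1 AGM library was left out. Losses of these calls below thus reflect the number of libraries and do not by themselves show unstable values. The Srm to Sms ratio differed between the tumor models. It averaged 3.31 ± 0.14 in AG, 3.78 ± 0.33 in AGM, 1.29 ± 0.54 in TI and 2.63 ± 0.75 in TIM. All 8 TI libraries lay below AG (difference -2.02, exact permutation p = 0.00606, adjusted p = 0.0175). TIM exceeded TI by 1.34 (exact permutation p = 0.0014, adjusted p = 0.0128), with 3 of 8 TIM libraries above every TI library. TIM and AG differed by -0.68 (exact permutation p = 0.158, adjusted p = 0.241). The minimum of the TIM tumors was 1.76 and the maximum of the TI tumors 2.51, in TI library 6.

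Ornithine decarboxylase passed in none of the comparisons. Odc1 was at 12.1, 13.8 and 10.7 FPKM in AG and at 7.59, 7.79, 8.94, 8.01 and 6.99 FPKM in AGM. TI ranged from 5.90 FPKM over a median of 8.95 FPKM to 20.2 FPKM, and TIM from 3.57 FPKM over a median of 11.1 FPKM to 17.5 FPKM. The tumors spread over the range of the glands and beyond it on both sides, whereas all 5 AGM libraries lay below all 3 AG libraries. Log2 differences were -0.30 in TI vs AG (95% interval -0.99 to 0.40), -0.22 in TIM vs AG (-0.92 to 0.47), -0.57 in AGM vs AG (-1.32 to 0.18), 0.07 in TIM vs TI (-0.44 to 0.58) and 0.35 in TIM vs AGM (-0.24 to 0.93), none of which passed. In AGM vs AG, Odc1 was lower by -1.08 with recomputed FPKM (limma FDR = 0.0451). By mean FPKM, Odc1 was the most abundant of the 10 transcripts in AG and TI and Srm in TIM, whereas Shmt2 and Odc1 overlapped at the top in AGM. In TI, Srm had the higher median, at 9.64 FPKM against 8.95 FPKM for Odc1.

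Odc1 lies on chromosome 12 (17594383 to 17601507, plus strand) and held a pair of E-boxes in an intron, shown because this pair is the textbook example of MYC binding.
Odc1, position 509, chr12:17595187-17595216: gggatgtgcggcCACGTGtcgcgaggcccg
Odc1, position 549, chr12:17595227-17595256: gccggcaggggaCACGTGgcccgggaccgg
Transcripts that regulate ODC protein were compared beside it. Oaz1, the antizyme that sends ODC to degradation, fell from 48.6 ± 2.42 FPKM in AG (31.0 ± 8.44 FPKM in TI, 27.4 ± 6.56 FPKM in TIM), by -0.67 (limma FDR = 0.00912) and -0.83 (limma FDR = 0.00202) on the log2 scale. The Odc1 to Oaz1 ratio differed by 0.36 in TI vs AG (exact permutation p = 0.164) and 0.59 in TIM vs AG (exact permutation p = 0.188), and neither passed. It was higher in TIM than in AGM by 1.04 (exact permutation p = 0.0148, adjusted p = 0.0369), a call lost without any of 4 AGM or 3 TIM libraries. Relative to Sat1, which acetylates polyamines for export, Odc1 was lower in AGM than in AG by -1.35 (exact permutation p = 0.0179, adjusted p = 0.0393), in 5 of 5 libraries, a call lost without any library of these groups. Relative to Azin1, the antizyme inhibitor, Odc1 did not pass in any comparison, with adjusted p from exact permutation between 0.0534 and 0.376.

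S-adenosylmethionine decarboxylase was lower in IGF2BP1 tumors. Amd1 was at 3.83, 3.42 and 3.61 FPKM in AG and at 2.89, 4.07, 4.32, 3.44 and 2.36 FPKM in AGM. TI ranged from 1.78 FPKM over a median of 2.04 FPKM to 2.81 FPKM, and TIM from 1.54 FPKM over a median of 2.24 FPKM to 4.18 FPKM. All 8 TI libraries lay below AG, while 2 of the 8 TIM libraries lay above it. The log2 difference was -0.57 in TI vs AG (SE 0.19, limma FDR = 0.0133), a call lost without AG library 1 (limma FDR = 0.0553). In TIM vs AG it was -0.41 (SE 0.19, limma FDR = 0.0702), which passed without TIM library 3 (limma FDR = 0.0274) or 6 (limma FDR = 0.0196) and with limma-voom (FDR = 0.0448). Mouse Amd2 is a near copy of Amd1, and how reads were split between both is uncertain. Amd2 averaged 0.763 ± 0.0609 FPKM in AG and 0.463 ± 0.103 FPKM in TI, which is below the filter.

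**Figure D2:**
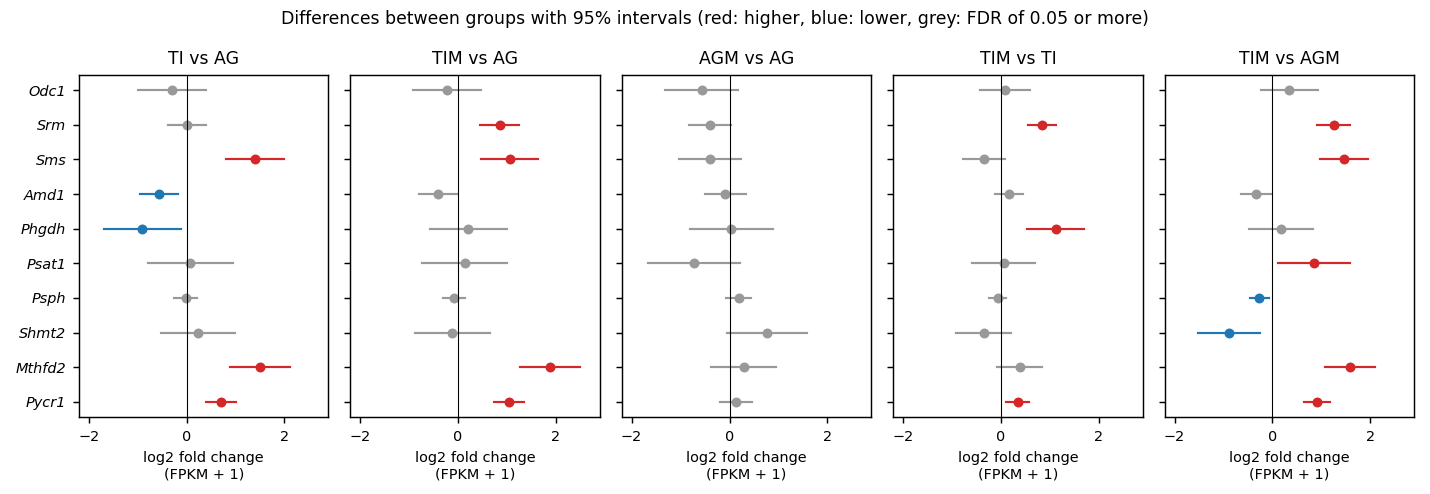
Differences of the 10 enzymes on the log2(FPKM + 1) scale (x axis) in 5 comparisons, as limma estimates (points) with 95% intervals (lines), in red when higher and blue when lower at an FDR below 0.05. Srm was higher in each comparison of TIM, with 0.84 against TI, and 0 of 10 passed in AGM vs AG.

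Serine synthesis did not move as a unit. Phgdh, its first enzyme, was at 0.641, 1.17 and 1.31 FPKM in AG and at 1.19, 2.51, 0.646, 0.441 and 1.10 FPKM in AGM. TI ranged from 0.0165 FPKM over a median of 0.0468 FPKM to 0.251 FPKM, which is 5 to 68 recovered reads, and TIM from 0.0430 FPKM over a median of 1.70 FPKM to 4.35 FPKM. All TI libraries lay below all glands, 6 of 8 TIM libraries lay above all TI libraries and the other 2 lay within the TI range. Mean Phgdh in TI was 0.0791 ± 0.0801 FPKM, 13.1-fold below AG, with a log2 difference of -0.91 (SE 0.38, limma FDR = 0.0498). That call sat at the threshold, was lost without the filter on low values (limma FDR = 0.0719) and without any single AG or TI library, AGM library 1, 3 or 5 or TIM library 8 (limma FDR between 0.0514 and 0.159). In TIM the mean of 1.75 ± 1.59 FPKM was 22.2-fold that of TI, a log2 difference of 1.12 (SE 0.28, limma FDR = 0.00714). With limma-voom on recovered reads this difference did not pass (FDR = 0.109).

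Markers of other cells went with Phgdh in some libraries and not in others. Sox10, a defining marker of Schwann and sustentacular cells that was singled out after its values were seen, was at 8.24 and 15.3 FPKM in TIM libraries 1 and 5, where Phgdh was at 3.21 and 2.47 FPKM. The 5 Schwann and sustentacular markers summed to 15.5 and 23.9 FPKM in these libraries and to 0.390 to 3.35 FPKM in the other TIM tumors, against 0.259 to 1.35 FPKM in TI. Without both libraries 3 enzymes still passed in TIM vs TI. TIM library 6, the highest for Phgdh, summed to 3.35 FPKM and library 3, at 2.37 FPKM of Phgdh, to 0.604 FPKM. In AG, adipocyte markers summed to 52.0, 184 and 229 FPKM, in the same order as Phgdh, and in AGM to 226 to 1088 FPKM, with the highest sum in the library with the most Phgdh. In tumors they summed to 0.0437 to 36.1 FPKM, with the lowest sum in TIM library 6, which held the most Phgdh. The part of these cells in the Phgdh values was not tested.

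Psat1, the aminotransferase of the pathway, was at 3.36, 3.65 and 3.38 FPKM in AG and at 1.82, 1.82, 1.84, 1.74 and 1.36 FPKM in AGM. TI ranged from 1.84 FPKM over a median of 3.58 FPKM to 9.12 FPKM, and TIM from 1.11 FPKM over a median of 4.14 FPKM to 11.5 FPKM. All AGM libraries lay below AG, and the tumors spanned both. Log2 differences were 0.08 in TI vs AG (95% interval -0.79 to 0.95), 0.13 in TIM vs AG (-0.74 to 1.0) and -0.72 in AGM vs AG (-1.66 to 0.22), none past the threshold. TIM exceeded AGM by 0.85 (SE 0.35, limma FDR = 0.0395), a call lost without any single AGM library or without TIM library 3, 6, 7 or 8 (limma FDR between 0.0574 and 0.0812).

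Psph, the phosphatase that releases serine, was at 0.902, 0.884 and 0.960 FPKM in AG and at 1.24, 1.14, 1.06, 1.16 and 1.31 FPKM in AGM. TI ranged from 0.635 FPKM over a median of 0.836 FPKM to 1.38 FPKM, and TIM from 0.513 FPKM over a median of 0.835 FPKM to 1.30 FPKM. All 5 AGM libraries lay above AG, although the log2 difference of 0.19 (limma FDR = 0.260) turned to -0.09 with recomputed FPKM, and 7 of 8 TIM libraries lay below AGM. TIM and AGM differed by -0.27 (SE 0.09, limma FDR = 0.0160), a call that recomputed FPKM (limma FDR = 0.345) and limma-voom (FDR = 0.28) did not make. Tumors and AG differed by -0.02 in TI (95% interval -0.25 to 0.21) and -0.08 in TIM (-0.31 to 0.15).

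Within libraries, Phgdh was low in TI relative to both later enzymes of serine synthesis. The log2 ratio of Phgdh to Psat1 averaged -1.70 ± 0.47 in AG, -4.49 ± 0.62 in TI and -1.83 ± 1.70 in TIM. It was lower in TI than AG by -2.79 in 8 of 8 libraries (exact permutation p = 0.00606, adjusted p = 0.0175) and higher in TIM than TI by 2.66 (exact permutation p = 0.000311, adjusted p = 0.00855). The ratio of Phgdh to Psph differed by -2.67 in TI vs AG (exact permutation p = 0.00606, adjusted p = 0.0175) and 2.79 in TIM vs TI (exact permutation p = 0.00233, adjusted p = 0.0175). These 4 calls also passed with a pseudocount of 1, while those against AG were lost without any of the 3 AG libraries (adjusted p = 0.0531, exact permutation).

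One-carbon metabolism differed by enzyme and by compartment. Shmt2 was at 4.65, 4.27 and 4.08 FPKM in AG and at 7.01, 5.35, 6.52, 10.6 and 13.2 FPKM in AGM. TI ranged from 2.59 FPKM over a median of 4.58 FPKM to 17.4 FPKM, and TIM from 2.07 FPKM over a median of 3.90 FPKM to 7.33 FPKM. In deposited FPKM all AGM libraries lay above AG, and the tumors overlapped AG. The order of AGM and AG rests on that scaling. AGM library 2 held 1528 of 19229082 reads outside the 126 genes above 1000 FPKM, a smaller share than 1551 of 17329087 in AG library 1. Log2 differences were 0.24 in TI vs AG (95% interval -0.52 to 1.0), -0.12 in TIM vs AG (-0.88 to 0.64) and 0.77 in AGM vs AG (-0.05 to 1.59), none past the threshold. TIM was lower than AGM by -0.89 (SE 0.31, limma FDR = 0.0153), a call ended by recomputing FPKM (limma FDR = 0.0941), by limma-voom (FDR = 0.0823) or by leaving out AGM library 5 (limma FDR = 0.0584).

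The cytosolic counterpart passed in tumors where Shmt2 did not. Shmt1, which runs the same reaction in the cytosol, fell from 5.90 ± 0.310 FPKM in AG (1.43 ± 0.859 FPKM in TI, 1.29 ± 1.08 FPKM in TIM), by -1.59 (limma FDR = 0.000543) and -1.73 (limma FDR = 0.000234). The log2 ratio of Shmt2 to Shmt1 was -0.44 ± 0.06 in AG, 0.95 ± 0.24 in AGM, 2.05 ± 1.21 in TI and 1.99 ± 0.79 in TIM. Every library of AGM, TI and TIM lay above every AG library. The differences to AG were 1.39 in AGM (exact permutation p = 0.0179, adjusted p = 0.0393), 2.49 in TI (exact permutation p = 0.0242, adjusted p = 0.0494) and 2.42 in TIM (exact permutation p = 0.00606, adjusted p = 0.0175). The TI call was also lost without TI library 1, 7 or 8, and the AGM call without any AGM library (adjusted p = 0.0561 to 0.0629). AG was therefore the only group with more Shmt1 than Shmt2 transcript per length.

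Mthfd2 was higher in both kinds of tumor, with the largest difference of the 10 enzymes to AG on the log2(FPKM + 1) scale, although Pycr1 rose more as a ratio of means. Mthfd2 was at 0.706, 0.575 and 0.592 FPKM in AG and at 1.02, 0.949, 1.25, 0.994 and 0.760 FPKM in AGM. TI ranged from 2.08 FPKM over a median of 3.31 FPKM to 6.55 FPKM, and TIM from 1.92 FPKM over a median of 4.74 FPKM to 9.88 FPKM. Every tumor lay above every gland. In deposited FPKM every AGM library also lay above AG, but that order rests on the scaling. AGM library 5 held 222 of 23683176 reads outside the 126 genes above 1000 FPKM, a smaller share than 211 of 17312333 in AG library 2. TI exceeded AG 6.10-fold in means (log2 difference 1.49, SE 0.30, limma FDR = 2e-04) and TIM exceeded AG 8.66-fold (1.88, SE 0.30, limma FDR = 1.41e-05). TIM exceeded AGM by 1.58 (SE 0.25, limma FDR = 9.91e-06), while TIM and TI differed by 0.38 (95% interval -0.07 to 0.84, limma FDR = 0.214). All 3 calls held in every alternative that tested Mthfd2.

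Against Mthfd1, the cytosolic enzyme that fell by 0.60 in both tumor groups (limma FDR = 0.00948 and 0.00975), the log2 ratio of Mthfd2 rose from -2.05 ± 0.14 in AG to 1.14 ± 0.71 in TI and 1.60 ± 0.65 in TIM. It was higher by 3.19 and 3.65, each in 8 of 8 tumors (exact permutation p = 0.00606, adjusted p = 0.0175 for both). Against Mthfd2l, a close mitochondrial relative below the expression filter, the ratio rose by 1.79 in TI and 2.54 in TIM (exact permutation p = 0.00606, adjusted p = 0.0175 for both) and by 0.98 in AGM (exact permutation p = 0.0179, adjusted p = 0.0393), a call lost without any AGM library (adjusted p = 0.0561 to 0.0629).

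Pycr1 was the scarcest of the 10 transcripts in glands. It was at 0.0782, 0.126 and 0.0910 FPKM in AG, which is 33 to 52 recovered reads, and at 0.144, 0.216, 0.250, 0.173 and 0.225 FPKM in AGM. TI ranged from 0.527 FPKM over a median of 0.684 FPKM to 1.48 FPKM, and TIM from 0.737 FPKM over a median of 1.27 FPKM to 1.88 FPKM. In deposited FPKM the groups formed steps, since every AGM library lay above AG, every tumor above AGM and 4 of 8 TIM libraries above all TI libraries. The step from AG to AGM rests on that scaling. Of the reads outside the 126 genes above 1000 FPKM, Pycr1 held 46 of 16168851 in AGM library 1 and 59 of 21910323 in AGM library 4. Both are smaller shares than the 52 of 17312333 in AG library 2. TI was 8.23-fold and TIM 13.2-fold above AG in means, with log2(FPKM + 1) differences of 0.70 (SE 0.15, limma FDR = 0.000407) and 1.04 (SE 0.15, limma FDR = 3.78e-06) that understate the fold of such a low gene. The step from TI to TIM was 0.34 (SE 0.11, limma FDR = 0.0301). It did not pass in a fit of these groups alone (limma FDR = 0.0934), after recomputing FPKM (limma FDR = 0.0853), in limma-voom (FDR = 0.087) or without any of 6 tumor libraries (limma FDR between 0.0531 and 0.0617).

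Proline breakdown went the other way in both tumor groups. Prodh, which degrades proline, fell from 1.39 ± 0.276 FPKM in AG (0.113 ± 0.139 FPKM in TI, 0.114 ± 0.109 FPKM in TIM), by -1.10 in both (limma FDR = 7.71e-07 and 8.31e-07). The log2 ratio of Pycr1 to Prodh rose by 5.10 in TI and 5.67 in TIM, each in 8 of 8 tumors (exact permutation p = 0.00606, adjusted p = 0.0175 for both). Between AGM and AG it differed by 0.18 (exact permutation p = 0.607, adjusted p = 0.655).

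**Figure D3:**
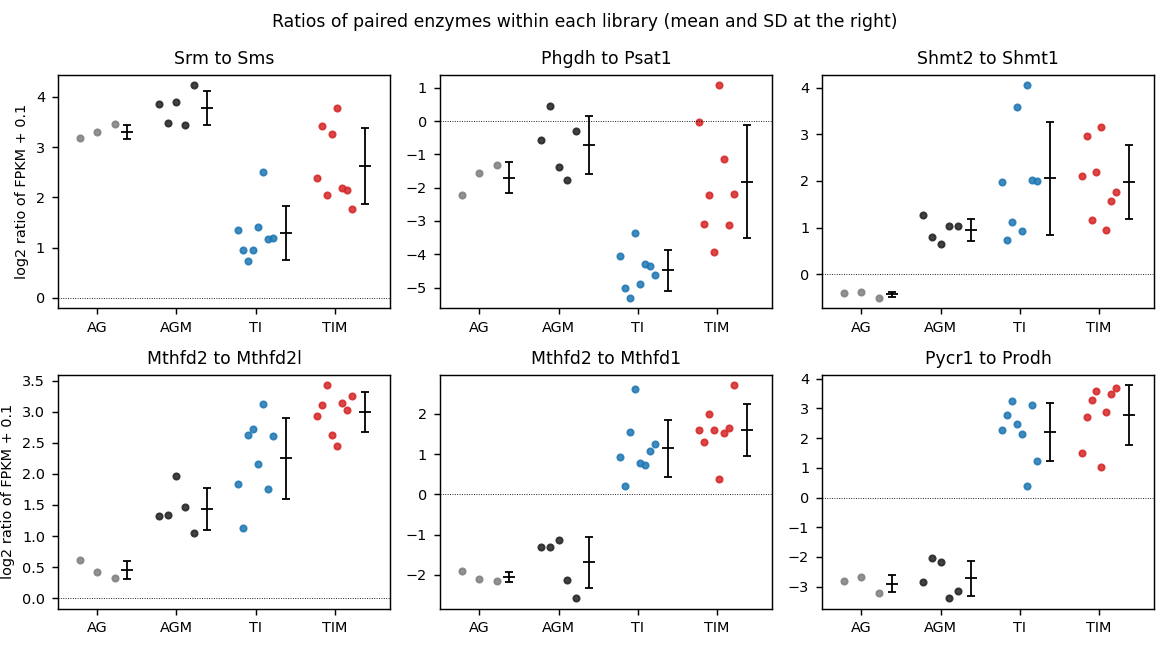
Log2 ratios of FPKM + 0.1 for 6 pairs of enzymes (y axis) in each library of AG, AGM, TI and TIM (x axis), with mean and SD as a bar to the right of each group. Every tumor lay above every AG library for Shmt2 to Shmt1, Mthfd2 to Mthfd2l, Mthfd2 to Mthfd1 and Pycr1 to Prodh, and every TI tumor lay below every AG library for Srm to Sms and Phgdh to Psat1.

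Pycr1 lies on distal chromosome 11 (120526484 to 120539269, minus strand), and its neighbors did not share its step from TI to TIM. Of 52 tested neighbors within 1 Mb, 22 were higher and 7 lower in TI vs AG, with a median log2 difference of 0.21. Of all tested genes 24.6% were higher and 27.7% lower there, and Pycr1 was higher too. In TIM vs TI, 2 were higher and 24 lower with a median of -0.32, whereas Pycr1 was higher. Pycr1 also held the letters TGATGNAAN, the amino acid response element to which Atf4 binds with a C/EBP partner. The letters, searched on both strands, occurred in 17.3% of all windows and near 5 of the 10 enzymes (Amd1, Mthfd2, Phgdh, Pycr1 and Shmt2). Among these, Amd1 and Phgdh were lower in TI vs AG and Shmt2 did not pass against AG. A match describes the letters only and was not tested as a binding site. The matches of the 2 enzymes that rose in both tumor groups are shown with the element in capitals.
Pycr1, position -79, chr11:120534659-120534687: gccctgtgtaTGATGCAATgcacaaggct
Mthfd2, position 435, chr6:83294151-83294179: tgctgcagtcTGATGAAATctgtgagccg

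Whether the enzymes followed Mycn, Atf4 or the proliferation marker Mki67 from tumor to tumor was examined within each model, with 60 relations in all (10 enzymes, 3 genes, 2 models, 8 tumors each, exact permutation of pairings). Mycn averaged 8.57 ± 5.27 FPKM in TI and 2.84 ± 1.18 FPKM in TIM against 0.654 ± 0.147 FPKM in AG, so the model with more Srm had less mouse Mycn (log2 difference -1.14, limma FDR = 0.0094). Within each model, Srm was higher where Mycn was higher. Pearson's r was 0.80 in TI (exact permutation p = 0.0187, adjusted p = 0.142) with Spearman's rho of 0.86 (exact permutation p = 0.0107, adjusted p = 0.161). In TIM, r was 0.81 (exact permutation p = 0.0269, adjusted p = 0.147) and rho 0.71 (exact permutation p = 0.0576, adjusted p = 0.23). Without the 2 tumors farthest in Mycn r was 0.85 and 0.69. Neither relation passed the adjustment, and no other enzyme reached an unadjusted p below 0.05 against Mycn in either model.

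By Pearson's r, 3 of the 60 relations passed after adjustment, all in TIM, and by Spearman's rho 0 passed, with 14 at an unadjusted Pearson p below 0.05. Pycr1 followed Atf4 with r = 0.90 (exact permutation p = 0.000868, adjusted p = 0.0427) and rho = 0.95 (exact permutation p = 0.00114, adjusted p = 0.067), and r was 0.85 without the 2 farthest tumors. Sms followed Mki67 with r = 0.90 (exact permutation p = 0.00213, adjusted p = 0.0427) and rho = 0.93 (exact permutation p = 0.00223, adjusted p = 0.067), and r was 0.79 without the 2 farthest. Psat1 followed Mki67 with r = 0.92 (exact permutation p = 0.00198, adjusted p = 0.0427) and rho = 0.86 (exact permutation p = 0.0107, adjusted p = 0.161), and r was 0.83 without the 2 farthest. In TI the same 3 relations had r of 0.19, 0.37 and 0.31 (exact permutation p = 0.623, 0.295 and 0.412, adjusted p = 0.814, 0.598 and 0.727), and the difference between models was not tested. TIM tumors came from 2 runs that could not be separated. The 8 cycling markers summed to 2.12 to 59.9 FPKM in TIM, lowest in library 5, where Odc1, Sms and Mthfd2 were also at their lowest.

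**Figure D4:**
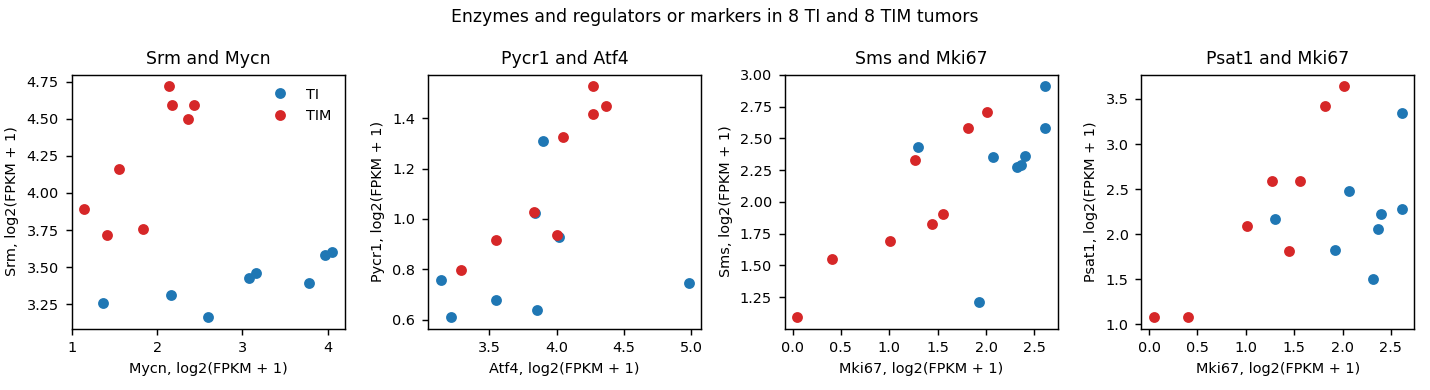
Expression of an enzyme (y axis) against Mycn, Atf4 or Mki67 (x axis), both as log2(FPKM + 1), in 8 TI tumors (blue) and 8 TIM tumors (red). TIM tumors lay above TI tumors for Srm at a lower mean of Mycn, whose ranges overlapped, and Pycr1 rose with Atf4 in TIM with r = 0.90.

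Across the 16 tumors, with the mean of each model taken out, several enzymes varied together. Spearman's rho was 0.91 for Odc1 and Psat1, 0.86 for Sms and Psat1, 0.85 for Odc1 and Sms, 0.76 for Mthfd2 and Psat1, 0.73 for Pycr1 and Odc1 and 0.68 for Amd1 and Sms, as a description over libraries that share depth and scaling. Srm stood apart from Odc1 with a rho of 0.05, and Phgdh from Psat1 with 0.32. The tested gene most like each enzyme by the same measure was Hmgb3 for Odc1 (0.98), Igfbp2 for Sms (0.95), Hpf1 for Psat1 (0.95), Snrpe for Pycr1 (0.95), U2surp for Amd1 (0.93), Bckdk for Psph (0.92), Rtn4rl2 for Phgdh (0.92), Uchl5 for Mthfd2 (0.89), Lypla1 for Shmt2 (0.86) and Ak4 for Srm (0.81).

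The wider pathways were described from lists of known genes, beside the background shares given above. Of 25 further tested polyamine genes, 1 was higher and 8 lower in TI vs AG, 3 higher and 7 lower in TIM vs AG, and 2 higher and 1 lower in TIM vs TI. Dhps, which uses spermidine to make the hypusine of eIF5A, rose from 1.82 ± 0.0192 FPKM in AG (4.15 ± 0.898 FPKM in TI, 5.85 ± 1.25 FPKM in TIM), by 0.85 (limma FDR = 7.28e-05) and 1.26 (limma FDR = 3.89e-07), and differed between the models by 0.41 (limma FDR = 0.0127). Of the methionine salvage enzymes, which recycle the by-product of Srm and Sms, Mtap was lower by -1.30 in TI tumors (limma FDR = 0.000165) and -0.95 in TIM tumors (limma FDR = 0.0035), and Adi1 by -1.33 (limma FDR = 7.94e-06) and -1.21 (limma FDR = 2.89e-05).

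Of 17 further tested serine and glycine genes, 1 was higher and 8 lower in TI vs AG, 2 higher and 7 lower in TIM vs AG, and 6 higher and 2 lower in TIM vs TI. Amt of the glycine cleavage system was the one that rose in TI, by 0.95 (limma FDR = 0.000108), whereas Gcsh and Dld of the same system fell by 1.79 (limma FDR = 3.75e-08) and 0.97 (limma FDR = 8.16e-05). Slc1a4, a serine carrier, rose in TIM by 1.17 against AG (limma FDR = 7.56e-05) and 0.71 against TI (limma FDR = 0.00304). Gamt, which makes creatine, rose from TI to TIM by 1.29 on the log2(FPKM + 1) scale (limma FDR = 0.00397), after a fall of 3.12 in TI vs AG (limma FDR = 7.83e-07).

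Of 18 further tested folate genes, 2 were higher and 6 lower in both TI vs AG and TIM vs AG, and 1 was higher and 1 lower in TIM vs TI. Mthfd1l, which acts after Mthfd2 in mitochondria, rose by 0.54 in TI tumors (limma FDR = 0.00701) and 0.50 in TIM tumors (limma FDR = 0.012). Of 12 further proline and glutamate genes, 1 was higher and 6 lower in TI vs AG and 3 higher and 5 lower in TIM vs AG. Aldh18a1, which begins proline synthesis from glutamate, differed by 0.23 in TI vs AG (limma FDR = 0.275) and rose by 0.82 in TIM vs AG (limma FDR = 0.000411) and 0.59 in TIM vs TI (limma FDR = 0.0029). Aldh18a1 and Pycr1 are the first and last steps of that route, and both passed in the main fit of TIM vs TI. The Pycr1 call was lost with recomputed FPKM (limma FDR = 0.0853) and with limma-voom (FDR = 0.087), and Aldh18a1 was not compared under these alternatives.

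Of 18 tested amino acid response genes, none of them among the 10 enzymes, 3 were higher and 5 lower in TI vs AG. In TIM vs AG 6 were higher and 3 lower, and in TIM vs TI 7 higher and 3 lower, the last against 10% and 12.9% of all genes. Of all TIM vs TI calls 43.6% were higher, and 29.9% with recomputed FPKM, under which this list was not counted. Asns, the asparagine synthetase, rose from 1.18 ± 0.179 FPKM in AG (4.94 ± 2.23 FPKM in TI, 9.39 ± 2.28 FPKM in TIM), by 1.37 (limma FDR = 3.09e-05) and 2.23 (limma FDR = 3.07e-08), with 0.86 between the models (limma FDR = 0.00143). The glycyl-tRNA synthetase Gars1 rose by 1.11 (limma FDR = 0.000189) and 1.65 (limma FDR = 1.35e-06). Atf4 itself did not pass in any of the 5 comparisons (limma FDR between 0.563 and 0.91). Of 11 MYC family and partner genes, 5 were higher and 3 lower in TI vs AG and in TIM vs AG. Mycn rose by 2.30 in TI tumors (limma FDR = 5.4e-05) and 1.15 in TIM tumors (limma FDR = 0.0214), whereas Myc fell by 1.53 (limma FDR = 6.71e-07) and 1.95 (limma FDR = 1.55e-08).

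**Figure D5:**
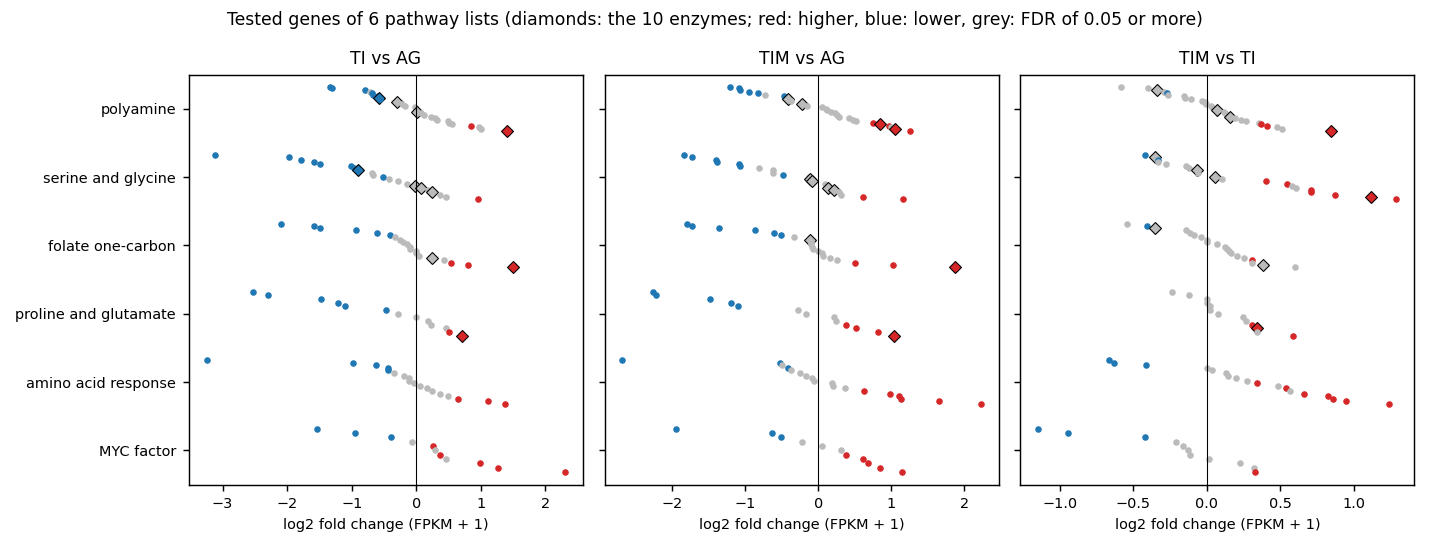
Differences of all tested genes of 6 pathway lists on the log2(FPKM + 1) scale (x axis) in TI vs AG, TIM vs AG and TIM vs TI, with the 10 enzymes as diamonds, in red when higher and blue when lower at a limma FDR below 0.05. Mthfd2 was the folate gene and Pycr1 the proline gene with the largest rise in TI vs AG, and Srm the polyamine gene with the largest rise in TIM vs TI.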

How the data were processed

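Poly(A) RNA of 24 samples was sequenced in strand-specific libraries. According to the submitters' processing notes, reads were trimmed with cutadapt 2.8, aligned to mm39 with HISAT2 2.1.0, handled with SAMtools 1.10, counted with featureCounts 2.0.0 and processed with edgeR 3.40. The annotation is not given in the sources used here. The authors corrected batches with ComBat-seq, scaled libraries by TMM and deposited FPKM of protein-coding genes, so batch and scaling steps precede every value here. The table also holds the authors' own fold changes and p-values, which were not used, and 0 columns of other samples. Columns were assigned to groups by name, and 0 pairs of columns were identical.

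Read numbers were recovered from the FPKM, since every value was a whole multiple of 1 read within 0.01. Genes that reached 1 FPKM in 3 or more libraries were fitted on log2(FPKM + 1) with limma 3.58.1 (R 4.3.3, all 4 groups in 1 fit, trend), with Benjamini-Hochberg adjustment over all tested genes. Ratios and relations were tested by exact permutation (scipy 1.17.1), and 1 ratio that entered the adjustment is not reported here. The scripts were tested on simulated data. Alternatives were a pseudocount of 0.1, other filters, fits of the compared groups alone, FPKM recomputed without the genes above 1000 FPKM, limma-voom on recovered reads, and each library left out. Named are the 10 enzymes, their ratio partners, Mycn, Myc, Atf4 and Mki67, the gene most alike each enzyme and, of each pathway list, the 2 genes with the largest rise and the 2 with the largest fall past the threshold in a comparison, of which a selection is printed. Gcsh, Sox10, Bhmt and Arg1 were added after their values were seen. The enzymes and lists were chosen with earlier results of these data known. Positions are from GENCODE M39 on GRCm39.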

Additional observations from a re-analysis of the deposited data

Results flagged for a closer look

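Of 30 groups of 4 to 10 libraries checked, 3 held a library far from the others of its group, where chance flags about 1 in 20. The lowest AGM library for Psat1, library 5, was at 1.365 FPKM with the next at 1.74 FPKM, a gap of 0.777 of the group's range. The highest TI library for Psat1, library 3, was at 9.121 FPKM with the next at 4.58 FPKM (0.624 of the range), and it also held the highest cycling marker sum of TI, at 102 FPKM. The highest TI library for Shmt2, library 6, was at 17.44 FPKM with the next at 6.84 FPKM (0.714 of the range). It also held the lowest Odc1 and Sms of TI and the highest sums of cortex and of chromaffin and sympathetic markers in TI, at 10.1 and 1822 FPKM, and their part in the Shmt2 value was not tested.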

How the results depend on the processing

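The call counts over all genes were 5327 in TI vs AG, 5190 in TIM vs AG, 2908 in AGM vs AG, 2332 in TIM vs TI and 6639 in TIM vs AGM. With at least 1 FPKM required in every library fewer genes were tested, and 1627, 1534, 569, 737 and 1944 were called, with 1 enzyme in TI vs AG, 1 in TIM vs AG, 1 in TIM vs TI and 3 in TIM vs AGM. Fits of the compared groups alone called 6312 genes and 8 enzymes in AGM vs AG and 1309 genes in TIM vs TI. Recomputed FPKM gave 5863 genes and 3 enzymes in AGM vs AG, 3595 genes in TIM vs TI and 6 relations to Mycn, Atf4 and Mki67 (3 otherwise). With limma-voom 3 enzymes passed in AGM vs AG and 1 in TIM vs TI. Leaving out each library in turn gave 4322 to 5575, 4148 to 5420, 1727 to 3319, 1815 to 2778 and 5968 to 6894 genes, 3 to 5, 4 to 5, 0 to 0, 2 to 4 and 6 to 7 enzymes, and 7 to 28 ratios.

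Directions turned only in differences that did not pass in the main analysis, although Psph in AGM vs AG passed between those groups alone. With recomputed FPKM these were Srm in TI vs AG (-0.0073), Phgdh (-0.0827) and Psat1 (-0.0552) in TIM vs AG, Phgdh (-0.3667) and Psph (-0.0905) in AGM vs AG, and Odc1 (-0.0592) and Psat1 (-0.1120) in TIM vs TI. With limma-voom they were Srm in TI vs AG (-0.0066), Phgdh (-0.6512) and Psat1 (-0.1009) in TIM vs AG, Phgdh (-0.5268) and Psph (-0.1232) in AGM vs AG, Odc1 (-0.0643) and Psat1 (-0.1530) in TIM vs TI, and Phgdh in TIM vs AGM (-0.1244). A pseudocount of 0.1 turned Phgdh in TIM vs AG (-0.0566) and TIM vs AGM (-0.0631). Leaving out both TIM libraries with Sox10, an alternative chosen after seeing the data, turned Odc1 (0.0061), Phgdh (-0.0239) and Shmt2 (0.0275) in TIM vs AG and Phgdh in TIM vs AGM (-0.0630), and Odc1 then passed in TIM vs AGM (0.58, limma FDR = 0.0449). A pseudocount of 1 turned the ratios Srm to Sms (-0.0037) and Pycr1 to Prodh (-0.1562) in AGM vs AG and Phgdh to Psat1 in TIM vs AG (0.0811), and Srm to Sms in TIM vs AGM and Mthfd2 to Mthfd2l in TIM vs TI no longer passed.

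Without single libraries the signs of Srm (-0.0422 to 0.0472), Psat1 (-0.0819 to 0.1802) and Psph (-0.0641 to 0.0128) in TI vs AG, Psat1 in TIM vs AG (-0.0616 to 0.3045), Amd1 (-0.1574 to 0.0090) and Phgdh (-0.1506 to 0.1700) in AGM vs AG, and Odc1 (-0.0302 to 0.2577) and Psat1 (-0.1377 to 0.2284) in TIM vs TI varied, as did the ratios Phgdh to Psph (-0.2496 to 0.5592) and Phgdh to Psat1 (-0.5453 to 0.1693) in TIM vs AG and Shmt2 to Shmt1 in TIM vs TI (-0.2564 to 0.2178). The causes were not tested. No paired analysis was possible because the columns carry no number that ties a library to a sample or to a library of another group. With 3 AG libraries, and 5 to 68 recovered reads of Phgdh in TI, small differences were not detectable at this depth.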

Other observations

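Genes of the pathway lists were also compared between tumor-free glands of MYCN transgenic mice and AG, where 0 of the 10 enzymes passed with limma, 3 with recomputed FPKM or limma-voom and 8 in a fit of both groups alone. In AGM vs AG, 6 of 25 further polyamine genes were higher and 3 lower, 3 of 17 serine and glycine genes were higher and 1 lower, 6 of 18 folate genes were higher and 1 lower, and 2 of 12 proline and glutamate genes were higher and 0 lower. Of all tested genes 14.6% were higher and 14.0% lower, so the share of higher calls lay above this background most clearly among the folate genes. Of all calls 51.2% were higher, and 21.8% with recomputed FPKM. Of 18 amino acid response genes 5 were higher and 1 lower, among them Asns with a rise of 0.96 (limma FDR = 0.00604) in 5 of 5 libraries.

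The largest of these differences came from enzymes of folate and methionine breakdown that varied widely among AGM libraries. Ftcd, which feeds histidine carbon into folate, was at 1336, 418, 61.9, 26339 and 40258 FPKM in AGM against 1 recovered, batch-adjusted read in each AG library. Mat1a, a methionine adenosyltransferase best known from liver, was at 36.7, 7.11, 1.28, 1172 and 1373 FPKM in AGM, again against 1 read per AG library. Both were far above the others in libraries 4 and 5, which also held the most Shmt2, at 10.6 and 13.2 FPKM, the most Agmat, at 6.81 and 12.03 FPKM, and the most Cth, at 6.78 and 9.31 FPKM. The pattern was not limited to folate genes. Libraries 4 and 5 also held the most Gnmt (57.1 and 76.7 FPKM), Bhmt (19.4 and 17.9 FPKM) and Arg1 (17.3 and 21.6 FPKM). In AGM libraries 1 to 3 these were at most at 2.50, 0.396 and 0.946 FPKM. All these values are after batch adjustment, in a group that shared no run with AG. Recovered reads totalled 116740738 to 1170004708 per AGM library, so such FPKM cannot be read as plain transcript levels. The part of the adjustment in these values and the source of the transcripts were not tested. Ftcd and Mat1a are among the genes above 1000 FPKM that take most recovered reads in AGM, and their part in the Shmt2 values was not tested. Sdsl, which deaminates serine, was at 29.2 to 46.4 FPKM in AGM and 1.88 to 1.99 FPKM in AG, a log2 difference of 3.75 (limma FDR = 1.22e-09).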
